A study of Mus musculus with 6 samples.

Results

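The cytosolic ribosomal protein genes encode the protein subunits of the ribosome that translates nuclear messages. They were taken from the annotation by name: every protein-coding gene whose symbol begins with Rpl or Rps and a number, together with Rplp0, Rplp1, Rplp2 and Rpsa, leaving out the S6 kinases and the Rps19 binding protein. The rule found 91 genes of the 52550 listed, of which 34 belong to the small subunit, 54 to the large subunit and 3 to the stalk of the large subunit. It used no measured value.

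RNA was sequenced from 6 cortical hemispheres of mice of the C57BL6/J strain at postnatal day 2, 1 hemisphere per library. The 3 control libraries came from Slc7a5fl/fl; Emx1Cre- pups and the 3 knockout libraries from Slc7a5fl/fl; Emx1Cre+ pups. Both groups therefore carry the floxed alleles of Slc7a5, which encodes a transporter of large neutral amino acids, and Cre is present only in the knockouts, so an effect of Cre itself and of the deletion cannot be told apart. The Emx1 driver acts in the excitatory lineage and glia of the dorsal forebrain, and cells outside it, such as interneurons, microglia and vessels, keep the gene in a whole hemisphere.

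As background, ribosomal proteins assemble in the nucleolus with ribosomal RNA into a small and a large subunit. Their messages are among the most abundant in growing cells and typically start with a cytosine followed by a run of pyrimidines, the 5′ terminal oligopyrimidine (TOP) element. Through that element, the kinase mTORC1, which senses amino acids, controls how strongly the messages are translated. Translation is not measured by total RNA counts. The mammalian genome also carries very many processed copies of these genes, so that a short read from one of them often matches several places.

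The libraries held between 8249436 and 10372582 reads assigned to genes. Slc7a5, counted over the whole gene including parts outside the floxed exon, stood at 20.2, 40.7 and 26.1 CPM, in the order A, B, C, in the controls. The knockouts in the same order had 15.6, 9.37 and 11.4 CPM. CPM are the counts scaled by library size with TMM factors. Each knockout value was below each control value, with a log2 change of -1.25 ± 0.28 (SE) and an adjusted p of 0.400 by edgeR's quasi-likelihood test. Markers of cortical neurons were present in every library, with Neurod6 at 576 to 808 CPM and Tbr1 at 190 to 241 CPM. Of the 6 hindbrain and spinal cord markers, Hoxb3, Hoxa4 and Hoxc4 had no count, and the 6 summed to at most 0.509 CPM. Knockout B and knockout C stood apart for many of the ribosomal protein genes, and control B held choroid plexus RNA, with Ttr at 144 CPM against 0.101 to 27.2 CPM elsewhere.

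Which reads could be counted differed greatly among the 91 genes. Reads with several matches are absent from the deposited counts, and 87 of the 91 shared at least 1 stretch of 50 bases with another annotated gene. All 87 shared one with a pseudogene. Among the 4 whose windows occurred in no other gene were the low copies Rpl3l, Rpl39l and Rpl36-ps4. The median gene had 45.5% of the 50-base windows of its main transcript to itself. Some main transcripts were long, such as those of Rps15a (5179 bases, 93.6% unique) and Rps20 (3706 bases, 92.4%). Shares of windows and levels per kilobase of main transcript depend on that choice of transcript. Rps6, the substrate of the S6 kinases downstream of mTORC1, gives an example of a shared stretch. The stretch printed next, bases 557 to 606 of its transcript of 878 bases (gene at chr4:86854660-86857412, minus strand), is found in 13 other annotated genes, and the whole stretch is shared, so no part is in capitals.
Rps6 transcript, bases 557 to 606: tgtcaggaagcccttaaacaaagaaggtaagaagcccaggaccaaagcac

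Rps6 had 0 counts in each control and 3, 0 and 0 counts in knockouts A, B and C, with 15.4% of its windows unique. These counts therefore carry no information on whether Rps6 RNA differed between the genotypes. Rps18, with 13.3% unique windows, had a mean of 93.2 CPM in controls, and Rps29, with 64.2%, had 5 to 16 counts. Whether shared windows account for the few Rps6 counts was not tested. Among the 21 genes with under 20% unique windows the median level was 3.94 CPM. It was 21.1 CPM among the 37 genes with 20 to 60% and 76.4 CPM among the 33 genes with at least 60%. Across the 79 genes that could be tested, the share of unique windows and the level per kilobase of main transcript had a Spearman rho of 0.47 and, with the level on the log2 scale, a Pearson r of 0.48. These are descriptions over genes that share libraries and are not independent. Levels of different ribosomal protein genes in these counts are thus levels of uniquely placed reads.

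**Figure D1:**
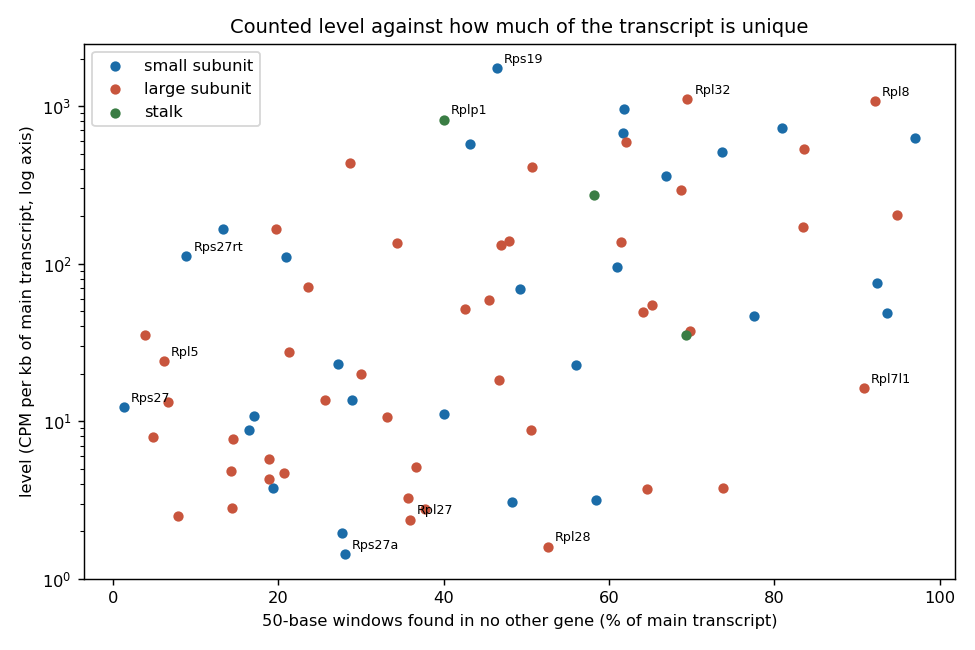
Level of 76 of the 79 tested genes (CPM per kilobase of main transcript, mean of 6 libraries, log axis) against the share of its 50-base windows found in no other annotated gene; colours mark the small subunit, the large subunit and the stalk. Rpl8 lies at 92.1% with 1077 CPM per kilobase, and Rps27a at 28.0% with 1.42.

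Per kilobase of the union of exons, the highest level belonged to Rplp1 (821 CPM per kilobase, range over libraries 618 to 1101), a stalk protein that recruits translation factors, followed by Rpl8 (674, range 619 to 741), which lies near the peptidyl transferase centre. Rpl32 (596, range 438 to 901) was also among the 4 highest. The ranges of these 3 genes overlapped over libraries, and their order within each library was not compared. Among the 79 tested genes, the lowest levels per kilobase were those of Rps27a (0.571, range 0.408 to 0.881), which is made as a fusion with ubiquitin, Rpl11 (0.859, range 0.460 to 1.58), Rpl27 (0.947, range 0.531 to 1.29) and Rpl28 (0.957, range 0.711 to 1.23). These 4 ranges overlapped as well. Divided by the bases of unique windows in place of exons, Rps19 led with 4059 CPM per kilobase, followed by Rplp1 with 2276 and Rpl32 with 1765. The gap between the upper and lower quartile of the levels was 32.2-fold on exon length and 20.1-fold on main transcript length. On unique windows of the main transcript it was 17.9-fold, so most of the narrowing came with the change to 1 transcript.

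The copies of Rps27 show sharing of sequence between near-identical genes. Rps27 encodes a zinc finger protein of the small subunit, and Rps27rt is an intronless copy elsewhere in the genome. The printed stretches run from 30 bases before to 30 bases after the annotated start in RefSeq (build GRCm38.p6), 5′ to 3′. Capitals mark the bases shown that belong to a run of 38 bases identical between the genes.
Rps27 (chr3:90213619-90213678, minus strand): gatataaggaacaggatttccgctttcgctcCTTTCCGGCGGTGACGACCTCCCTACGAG
Rps27rt (chr9:114982710-114982769, minus strand): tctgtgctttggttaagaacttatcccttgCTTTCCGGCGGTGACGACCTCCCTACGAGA
In the 50 bases just before the identical run, 8 bases matched at the same alignment. Rps27rt took 91.1, 92.2 and 86.0% of the reads of the pair in the controls, ordered A to C, and 94.7, 94.8 and 79.6% in the knockouts. The control mean was 89.8 ± 3.33% and the knockout mean 89.7 ± 8.76% (SD, n = 3 each). Only 8.92% of the windows of Rps27rt and 1.35% of those of Rps27 were unique, so the share describes placed reads and not the transcription of either gene. Rpl10-ps3, an intronless copy of Rpl10 that is typed protein coding, similarly took 91.2 ± 3.51% of its pair in controls and 91.1 ± 7.86% in knockouts, with 3.89% unique windows.

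Shares of more diverged paralogs also depend on which reads are counted. Rpl22l1, the paralog of the RNA-binding protein Rpl22, took 14.3, 16.04 and 16.01% of the pair in controls and 14.7, 14.8 and 15.0% in knockouts, so the groups overlapped. Counting both strands, which changes how reads are assigned to genes and not where they match, lowered the mean share from 15.4 to 1.69% in controls. Rpl7l1, a paralog of Rpl7 found in assembling subunits, took 66.9 ± 2.99% in controls and 66.5 ± 4.56% in knockouts. The share of Rps27l in the pair with Rps27 was 85.3 ± 4.12% and 83.7 ± 7.75%, with 77.6% unique windows in Rps27l and the 1.35% of Rps27 given above. That of Rpl36al in the pair with Rpl36a was 39.2 ± 10.1% and 40.8 ± 19.9%, with 36.7% unique windows in Rpl36al and 14.5% in Rpl36a. The tissue-restricted copies were near the limit of counting. Rpl3l, known from striated muscle, had 2 to 4 counts per library, Rpl39l, known from testis, had 0 to 5, and Rpl10l, also known from testis, had 0 in every library. Of the other copies, Rpl36-ps4 had 1 to 5 counts, Rpl9-ps6 had 1 to 8 and Rpl36a-ps1 had 0 or 1. Rps12-ps3 had 1 count, in knockout B, and Rpl9-ps1 had 0 in every library. The groups overlapped or tied in every pair but that of Rpl36-ps4 with Rpl36 (4.35, 7.14 and 9.09% against 21.4, 12.5 and 11.6%), which rests on these 1 to 5 counts.

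Start sites were looked at next because the TOP element ties this gene family to amino acid sensing. RefSeq starts of build GRCm38.p6 were at hand for 65 of the 91 genes. A run of at least 8 pyrimidines on the transcribed strand, between 20 bases before and 50 bases after the annotated start, was found in 49 of the 65, or 75.4%, against 28.5% of all 27025 genes with a start. The mirror image, a run of at least 8 purines, was found in 8 genes of the family, or 12.3%, against 31.7% of all genes. The motif CTTTCC, which can overlap such a run, was found in the same window in 20 of the 65, or 30.8%, against 3.79% of all genes. On the other strand it was found in 1 of the 65, or 1.54%, against 3.80%. Examples are printed from 20 bases before to 10 bases after the start, 5′ to 3′, with runs of at least 8 pyrimidines in capitals. Rpl23, Rpl5 and Rpl4 are shown because they had the smallest p-values between genotypes, Rps6, Rplp2, Rpl28 and Rpl14 because they were singled out by role, level or library pattern.
Rpl23 (chr11:97782430-97782459, minus strand): gctggacgaggtccggtcacgtggctgagt
Rpl5 (chr5:107900508-107900537, plus strand): CTCTTTCTCacgtcgcttgcgtgctggtgg
Rpl4 (chr9:64173367-64173396, plus strand): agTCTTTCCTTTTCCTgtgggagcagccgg
Rps6 (chr4:86857358-86857387, minus strand): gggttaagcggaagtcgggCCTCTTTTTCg
Rplp2 (chr7:141447631-141447660, plus strand): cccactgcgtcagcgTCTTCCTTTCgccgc
Rpl28 (chr7:4792945-4792974, plus strand): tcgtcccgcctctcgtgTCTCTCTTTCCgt
Rpl14 (chr9:120571497-120571526, plus strand): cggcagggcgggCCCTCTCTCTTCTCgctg
Each run shown begins before the annotated start. In Rps6, Rplp2, Rpl28 and Rpl14 the run spans the start, where a cytosine is followed by further pyrimidines. In Rpl5 and Rpl4 the run ends before the start. Rpl23 has no such run in the stretch shown, which says only that these letters are not in this window. The 46 tested genes with a run in the wider window had a median log2 change of 0.06, and the 13 with a start and no run also had 0.06.

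**Figure D2:**
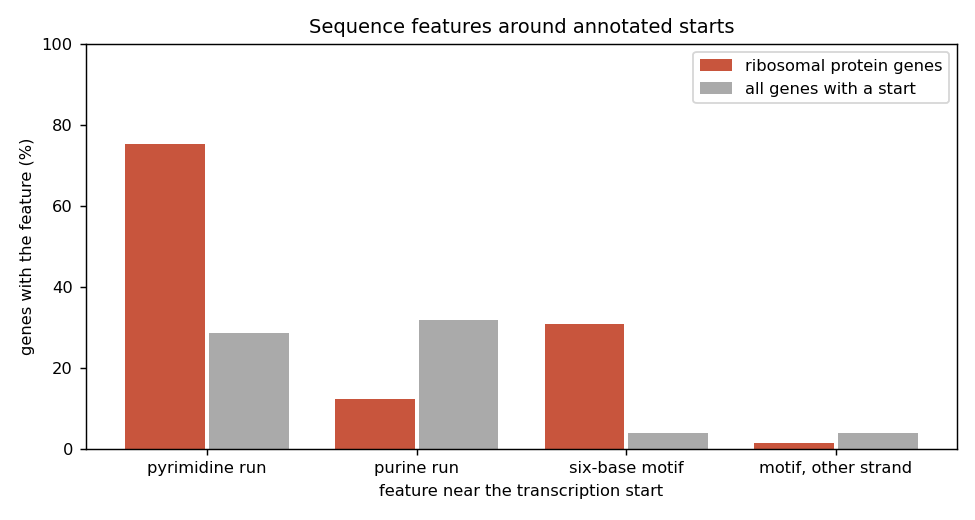
Percentage of the 65 ribosomal protein genes with a RefSeq start (red) and of all 27025 genes with a start (grey) that hold a pyrimidine run, a purine run, the motif CTTTCC or the motif on the other strand between 20 bases before and 50 bases after the start. Pyrimidine runs stand at 75.4% against 28.5% and purine runs at 12.3% against 31.7%.

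Between genotypes, none of the ribosomal protein genes passed the test. After a filter on low counts, 79 of the 91 were tested among 14913 genes, and 0 had an adjusted p under 0.05 by edgeR's quasi-likelihood test, where 0.0335% of all genes tested did. With the library letter as a replicate block, 0 passed against 0.845% of all genes, and DESeq2's Wald test called 0 as well. At an unadjusted p under 0.05 there were 3, all higher in the knockout, against 7% of all genes. With the block there were 6, against 11.9% of all genes. The members had higher values in the knockout in 45 cases and lower values in 34. Their median log2 change was 0.06, with quartiles of -0.07 and 0.15, where all genes tested had a median of 0.00 and quartiles of -0.12 and 0.14. By subunit the median was 0.06 for the 31 tested genes of the small subunit, 0.03 for the 45 of the large subunit and 0.06 for the 3 of the stalk.

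The intervals say how large a change these libraries could have missed. For 38 of the 79 genes the 95% interval of the log2 change lay within ±0.5, and for 64 it lay within ±1. Among the 50 genes with a mean of at least 20 CPM, 36 lay within ±0.5 and the median SE was 0.13. Among the 29 tested genes under 20 CPM the median SE was 0.30. Rpl8 was at 890, 940 and 920 CPM in the controls, ordered A to C, and at 901, 1007 and 841 CPM in the knockouts, so the groups overlapped, with an interval of -0.21 to 0.21. Rps3, a protein of the small subunit's head at the messenger RNA entry channel, was at 1104, 1353 and 1234 against 1131, 1112 and 1245 CPM, with an interval of -0.30 to 0.14.

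**Figure D3:**
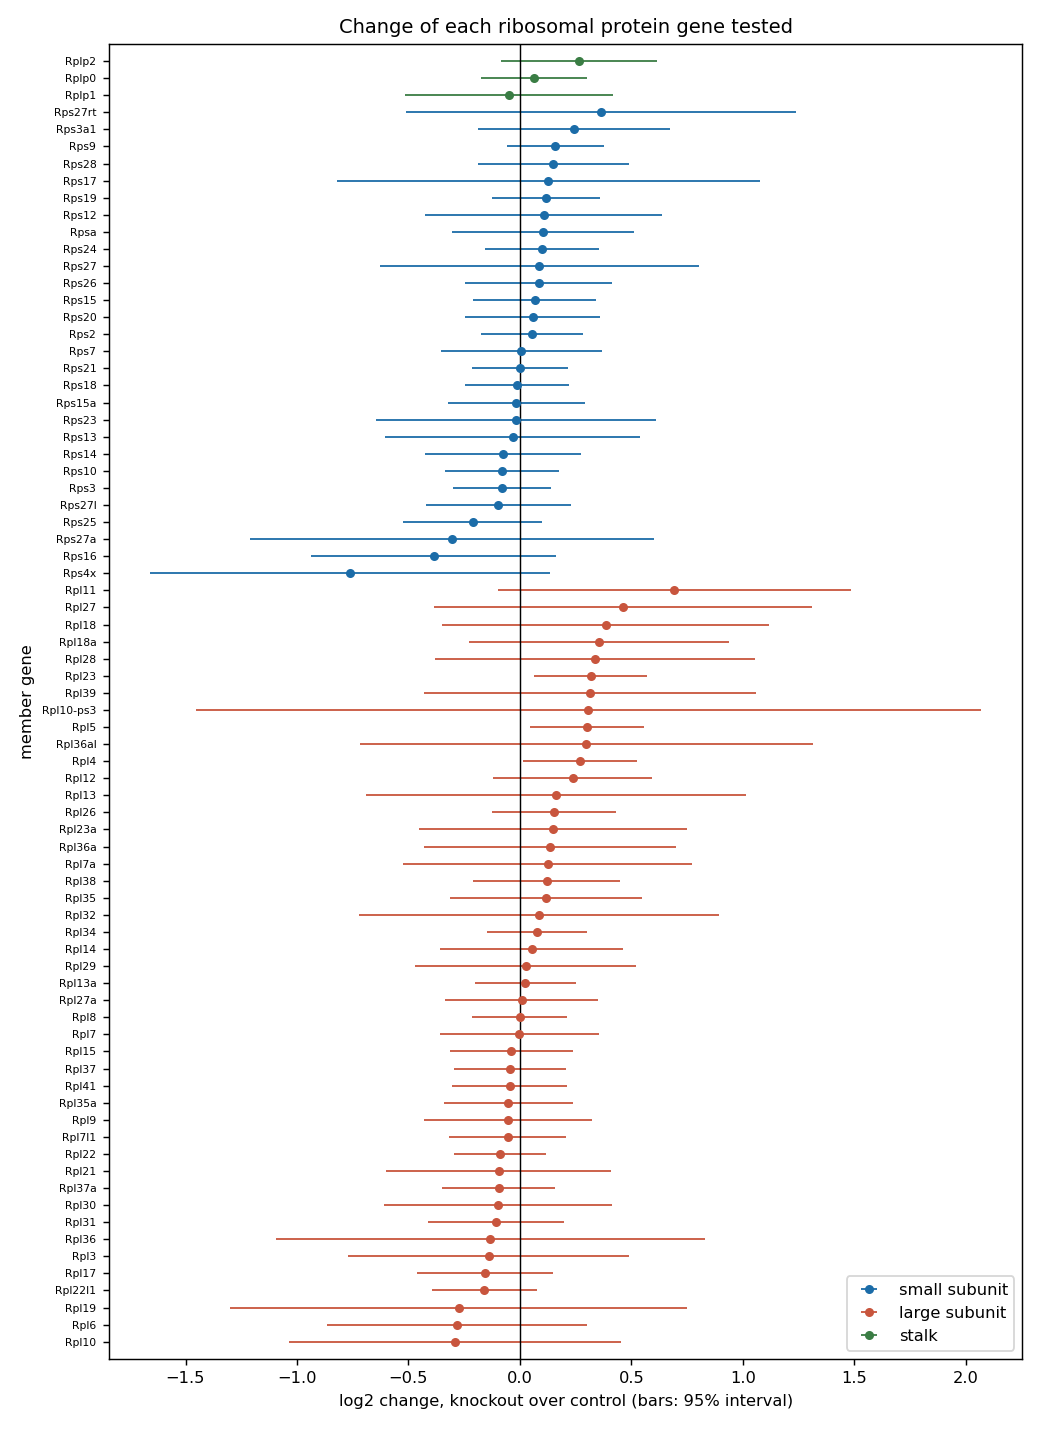
Log2 change, knockout over control, of 76 of the 79 tested genes, ordered by value within the small subunit, the large subunit and the stalk, with bars for the 95% interval of edgeR's fit. The changes run from -0.76 (Rps4x) to 0.69 (Rpl11), and the intervals of Rpl23, Rpl5 and Rpl4 are the ones that do not span 0.

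Rpl23, a large subunit protein that also binds Mdm2, had the smallest p. It was at 56.4, 45.5 and 51.6 CPM in the controls, ordered A to C, and at 71.0, 57.3 and 63.2 CPM in the knockouts, so the groups did not overlap. The log2 change was 0.32 ± 0.12 (edgeR adjusted p = 0.621, and 0.130 with the replicate block). Rpl5, which carries the smallest ribosomal RNA into the large subunit together with Rpl11, was at 43.4, 41.1 and 47.5 CPM against 49.4, 62.2 and 51.0 CPM. These groups did not overlap either, and the log2 change was 0.30 ± 0.12 (edgeR adjusted p = 0.642, and 0.217 with the block). Its change was 0.19 without knockout B and -0.04 with both strands counted. Rpl4, which lines the exit tunnel, was at 900, 623 and 727 CPM against 899, 932 and 881 CPM. Control A reached the knockout values, and the log2 change was 0.27 ± 0.12 (edgeR adjusted p = 0.708, and 0.204 with the block). It was 0.15 without control B and 0.42 without control A.

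The partner of Rpl5 could not be measured as well. Rpl11 had 16, 10 and 24 counts in controls and 24, 46 and 18 in knockouts, and its log2 change of 0.69 had an SE of 0.37. Without knockout B it was 0.28. The 8 smallest p-values with higher knockout values also included Rplp2 (0.26 ± 0.16), Rps9 (0.16 ± 0.10) and Rpl12 (0.24 ± 0.17). On the lower side, Rps4x, the X-linked small subunit protein, was at 2.21, 2.48 and 2.55 CPM in controls and at 0.412, 2.04 and 1.77 CPM in knockouts. Its groups did not overlap, but its counts were 4 to 25 per library and the log2 change was -0.76 ± 0.42 (edgeR adjusted p = 0.767). It was -0.34 without knockout A, the library with 4 counts. Rps16 (-0.39 ± 0.26), Rps25 (-0.21 ± 0.15), Rpl22l1 (-0.16 ± 0.11), Rpl17 (-0.16 ± 0.14), Rpl6 (-0.28 ± 0.28), Rpl22 (-0.09 ± 0.10) and Rpl10 (-0.29 ± 0.35) followed.

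Groups without overlap were found for 6 genes with higher and 2 with lower knockout values, or 7.59% and 2.53% of the 79 tested. Of all genes tested, 5.89% were without overlap on the higher side and 6.28% on the lower side. Among the 6 were Rpl5, Rpl12, Rpl23, Rpl28 and Rps9, and the 2 were Rps4x and Rps16. Without knockout B, the count was 18 higher and 12 lower, or 22.8% and 15.2% of the 79. Of all genes, 12.6% and 13.6% were then without overlap. With 2 libraries against 3 such a pattern is easier to reach, for these genes and for all genes alike. The larger share of these genes on the higher side was not tested.

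Among the members singled out by role, none of the 3 stalk proteins passed the test. Rplp0, the base of the stalk, was at 369, 366 and 346 CPM in controls and at 415, 318 and 395 CPM in knockouts, with a log2 change of 0.06 ± 0.11. Rplp1 was at 378, 458 and 415 against 349, 550 and 308 CPM, a change of -0.05 ± 0.20. Rplp2 was at 34.9, 25.8 and 31.2 against 40.8, 27.6 and 42.4 CPM. For each of the 3 the groups overlapped, and knockout B was the lowest knockout for Rplp0 and Rplp2 and the highest for Rplp1. Rpsa, the laminin receptor precursor of the small subunit, was at 40.3, 48.7 and 38.7 against 52.2, 53.4 and 31.4 CPM, a change of 0.10 ± 0.19. Rps27a was at 0.805, 1.74 and 1.22 against 1.13, 0.927 and 0.935 CPM, a change of -0.31 ± 0.43.

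**Figure D4:**
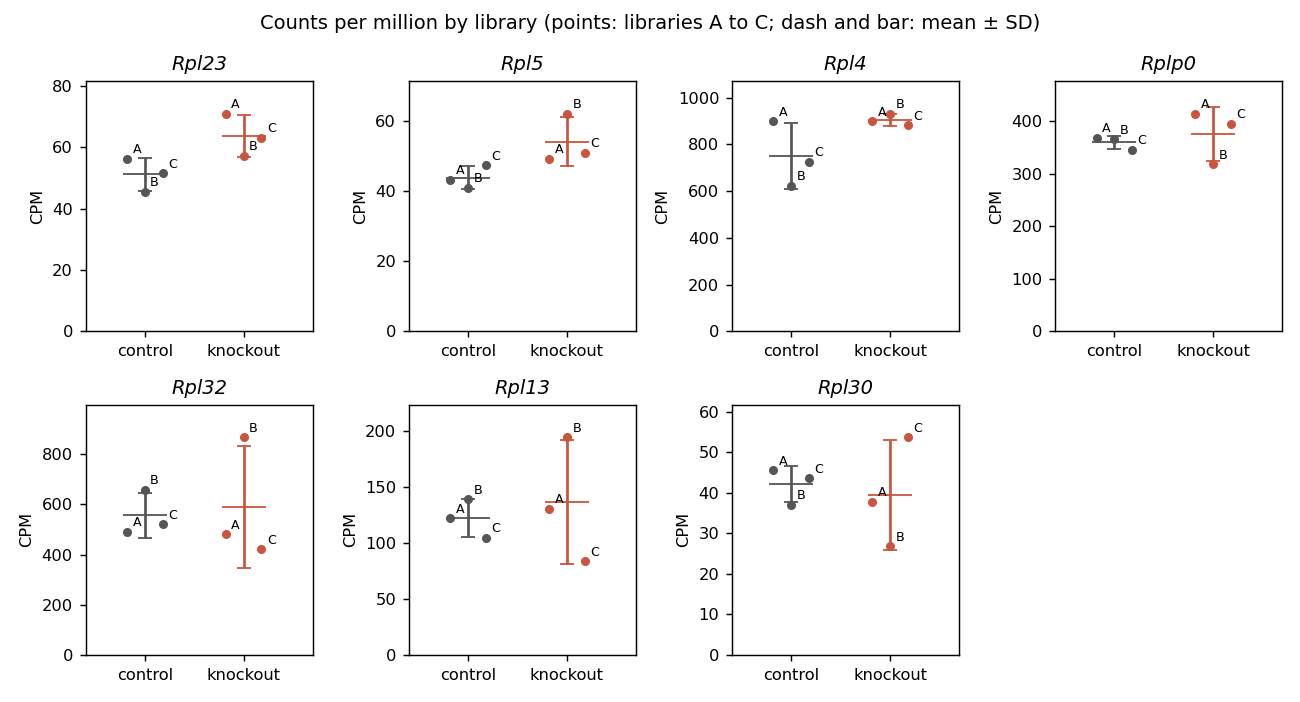
CPM of 7 genes in each library, with letters A to C, group mean as a dash and SD as a bar; each vertical axis starts at 0. Rpl23 and Rpl5 show no overlap between groups, and the knockout libraries B and C are at opposite ends for Rpl32, Rpl13 and Rpl30.

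The 12 genes left out by the filter on low counts had at most 16 counts in a library. Beside Rps6 and the copies described, they were Rps29, with 9, 5 and 6 counts in controls and 14, 8 and 16 in knockouts, Rpl10a, with 1 to 5 counts, and Rpl24, with 0 to 3. No fold change is given for them.

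Summed over all 91 genes, the controls held 12991, 13149 and 13007 CPM on the scale of total gene counts and the knockouts 13359, 14934.5 and 13472. The means were 13049 ± 87.2 and 13922 ± 879 (SD, n = 3 each), a difference of 6.69%. Each knockout was above each control on this scale. With TMM-scaled library sizes the difference was 3.67%, with 13176, 13455 and 13151 in controls against 13544, 14367 and 13331 in knockouts, and the groups overlapped. Within letters on the first scale, the knockout was higher by 2.84, 13.6 and 3.58% for A, B and C. The small subunit's sum was higher by 3.03, 8.07 and 6.31%, and the large subunit's by 2.51, 22.02 and 0.495%. The stalk's sum differed by 3.05, 12.1 and -3.85%. The mean difference was 5.81% for the small and 8.49% for the large subunit. The groups did not overlap for the small subunit on either scale, and overlapped for the large subunit and the stalk on both. With TMM-scaled sizes the small subunit had 7452 to 7568 CPM in controls and 7661 to 7874 in knockouts. The large subunit had 4790 to 5066 and 4712 to 5811 CPM. With TMM-scaled sizes the letters gave 2.98, 1.60 and 4.04% for the small subunit (mean 2.88%) and 2.46, 14.7 and -1.64% for the large subunit (mean 5.33%), so that the large subunit of letter C turned in direction. None of these sums was tested.

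The widest split within the family, of the 15 pairs of libraries, lay between libraries of 1 genotype. Knockout B and knockout C differed by over 1.5-fold for 17 of the 50 ribosomal protein genes with a mean of at least 20 CPM, where 4.16% of the 7505 genes at that level did. The mitochondrial ribosomal proteins, which form a separate ribosome, had 0 of 63. Between controls B and C it was 0 of the 50, and between knockouts A and C it was 5. Across genotypes it was at most 9, between control B and knockout C, where 6.12% of all genes at that level differed as much. The genes named here were chosen after their values were seen. Higher in knockout B were 11 genes, among them Rpl10-ps3 by 4.88-fold, Rps27rt by 2.53-fold, Rpl13 by 2.32-fold, Rpl39 by 2.14-fold, Rpl32 by 2.06-fold, and Rplp1, Rpsa, Rps26, Rpl14 and Rps20 by 1.57- to 1.78-fold. Lower in knockout B were 6, among them Rpl30, with a ratio of 0.499, and Rpl7, Rps14, Rplp2 and Rpl38 with ratios of 0.600 to 0.659.

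Rpl32 showed the pattern at a high level, at 491, 658 and 521 CPM in the controls, ordered A to C, and at 481, 868 and 422 CPM in the knockouts. Rpl13 was at 122, 139 and 105 against 131, 195 and 84.0 CPM. Rpl30 went the other way, at 45.6, 37.1 and 43.7 against 37.9, 26.8 and 53.7 CPM. For all 3 the knockouts lay on both sides of the controls, and the genotype intervals were wide, -0.72 to 0.89 for Rpl32, -0.69 to 1.02 for Rpl13 and -0.61 to 0.41 for Rpl30. In the 50 genes, the log2 ratio of library B to library C in the knockouts and that in the controls had a Spearman rho of 0.59 and a Pearson r of 0.59. Over all 7505 genes the Pearson r was 0.42. Libraries of 1 letter thus leaned the same way in both genotypes for these genes, as a description over genes that share libraries.

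**Figure D5:**
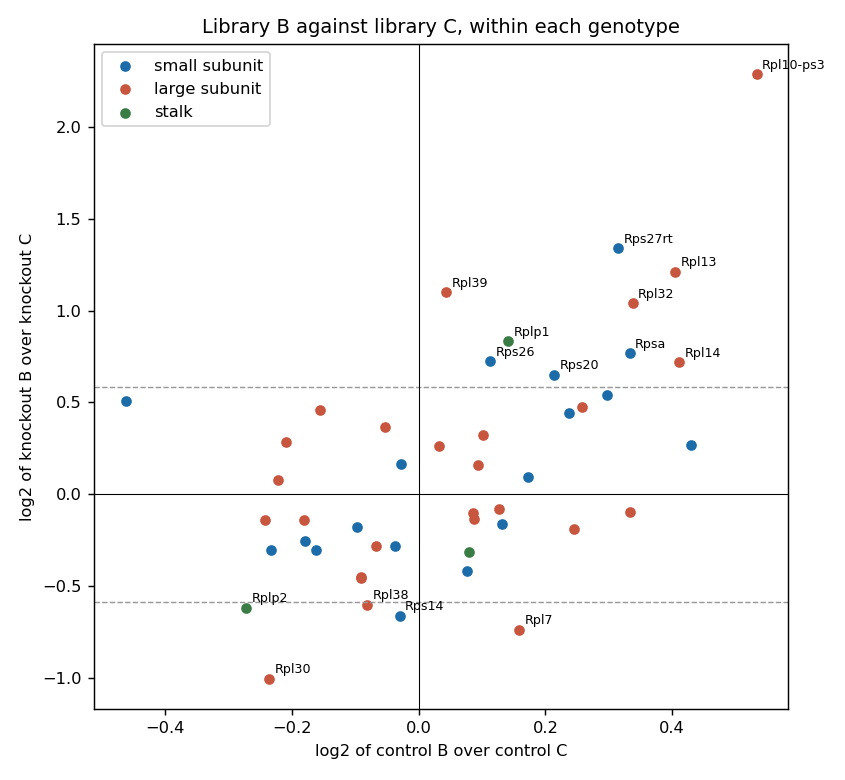
Log2 ratio of library B over library C in the knockouts (vertical) against the same ratio in the controls (horizontal) for 47 of the 50 ribosomal protein genes with a mean of at least 20 CPM; dashed lines mark a 1.5-fold difference, and the genes beyond them are labelled. Of the genes drawn, 10 lie above the upper line in the knockouts and 5 below the lower one, and in the controls none is past 1.5-fold.

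Measured features of the transcripts moved little with the ratio of knockout B to knockout C over the 50 genes. Spearman's rho was -0.17 with GC content, 0.02 with transcript length, -0.05 with the share of unique windows and 0.05 with the mean level. Pseudogenes that share a 50-base window with a ribosomal protein gene numbered 1002, and their summed counts on the scale of total gene counts came to 290, 277 and 248 CPM in the controls, ordered A to C, and to 298, 403 and 264 CPM in the knockouts. Knockout B was highest for them as for the family sum. Reads that matched no gene on the counted strand were 27.9% of uniquely mapped reads in knockout B and 27.8% in knockout C. They were 27.4% in knockout A and 26.5, 22.5 and 23.0% in the controls, ordered A to C. Summed markers of mural cells and fibroblasts were 193.7 CPM in knockout B and 185.8 CPM in knockout C. The part of any of these in the split of the knockouts was not tested.

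Cell types could also differ between the groups, and fewer cells of a type and less RNA per cell cannot be told apart in bulk tissue. Of the microglial markers 8 of 9 had higher values in the knockout, with sums of 129 to 162 CPM in controls and 150 to 193 CPM in knockouts. Of the interneuron markers 8 of 9 were higher, with sums of 1359 to 1440 and 1360 to 1712 CPM, and of the progenitor markers 7 of 10, with sums of 411 to 471 and 467 to 491 CPM. Of the cortical projection neuron markers 3 of 8 were higher, with sums of 3103 to 3412 and 3087 to 3324 CPM. Endothelial markers were higher in 7 of 7 and mural and fibroblast markers in 7 of 7, against 3 of 7 for astrocytes, 1 of 7 each for the oligodendrocyte lineage and the striatum, 1 of 3 for the choroid plexus and 0 of 5 for red cells. These are directions of values, and not calls. Their part in the values of the ribosomal protein genes was not tested.

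The rest of the ribosome pathway gave the same count of calls, 0 of 183 genes tested over the lists. The share called over all genes tested was 0.0335%, so 0 calls do not set these lists apart. Of the ribosome components outside the naming rule, Rack1, a scaffold on the small subunit, was at 1074, 1194 and 1060 CPM in controls and 1125, 1099 and 1039 CPM in knockouts, a log2 change of -0.03 ± 0.10. Fau, a ubiquitin-like fusion of the small subunit, had 5 to 23 counts and was not tested. In ribosomal RNA transcription, 11 of 21 genes had higher values and the median change was 0.00. Polr1b, a core subunit of RNA polymerase I, stood at -0.33 ± 0.16 and Polr2h, a subunit shared by the polymerases, at -0.29 ± 0.14. Among the core proteins of small nucleolar ribonucleoproteins, 5 of 9 had higher values.

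Nop10, a core protein of the particles that guide pseudouridylation, was the 1 gene of the 183 tested in these lists to pass with the replicate block in edgeR, where 0.845% of all genes passed. It was at 131, 199 and 186 CPM in the controls, ordered A to C, and at 108, 154 and 124 CPM in the knockouts, lower in the knockout in each of the 3 pairs although the groups overlapped. The log2 change was -0.41 ± 0.17 without the block (edgeR adjusted p = 0.680) and -0.41 ± 0.09 with it (edgeR adjusted p = 0.0215). DESeq2 gave an adjusted p of 0.568 without the block and 0.0685 with it, so it made no call in either design. Gar1 of the same particle stood at -0.20 ± 0.11.

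In small subunit assembly 22 of 44 genes had higher values with a median of 0.00, and the smallest p-values were those of Imp4 (0.31 ± 0.12) and Nop14 (0.28 ± 0.12), both of the small subunit processome. In large subunit assembly 22 of 56 had higher values with a median of -0.02, led by Rsl24d1 (0.38 ± 0.15) and Mrto4 (-0.25 ± 0.13). Of the import factors and chaperones 9 of 13 were higher with a median of 0.02, while the smallest p-values belonged to Ipo5 (-0.22 ± 0.11) and Grwd1 (-0.21 ± 0.13). Of the regulators of ribosomal protein messages 10 of 15 were higher with a median of 0.07. Tia1, an RNA-binding protein that can hold TOP messages, was at 188, 182 and 179 CPM in controls and 218, 265 and 205 CPM in knockouts, a change of 0.33 ± 0.11 without overlap (edgeR adjusted p = 0.539). Its relative Tial1 stood at 0.17 ± 0.10. Of the rescue and recycling genes 10 of 23 were higher with a median of -0.01, with Abce1, which splits ribosomes, at 0.30 ± 0.12 and Edf1, a sensor of collided ribosomes, at -0.21 ± 0.10.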

How the data were processed

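The deposited tables hold raw read counts per gene for each library, with columns for both strands and each single strand, per the file layout; the submitters' processing notes list STAR 2.5.4, GRCm38 and mm10. The multi-mapping line is 0 in every table. The counts on the strand of the first read were used, since they exceed the other strand by 17.5- to 19.2-fold. Of the 52550 identifiers, 52403 were found in GENCODE M21. The members and lists were chosen with earlier results of these data known.

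Counts were tested with edgeR 4.0.16 (filterByExpr, TMM, robust quasi-likelihood F-test, two-sided) in R 4.3.3, and p-values were adjusted by Benjamini-Hochberg over all genes tested; 95% intervals are the log2 change ± the t quantile times SE. DESeq2 1.42.0 and the other alternatives appear in the closing section. The labels do not say what the letters mean. Same-letter libraries deviated together (r = 0.417, 0.342 and 0.211), so the letters were taken to pair them, while the primary model had been set without the block; p-values measure the spread between these libraries. No 2 libraries were alike within sampling noise. The code was checked on simulated data.

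No genome sequence was used: windows were matched among GENCODE M21 transcripts, so copies outside annotated genes are missed, and this replaces the genome match that had been planned. Windows came from a single main transcript per gene, preferring curated RefSeq messages, then CCDS entries, APPRIS level, support level and identifier. Starts came from RefSeq. Genes were named by rule: the 8 smallest p-values in each direction, the 4 highest and 4 lowest levels per kilobase, paralog pairs, genes below the filter, fixed roles, and from each list those called or the 2 with the smallest p. Some genes that this rule names are not reported here, and 3 members are not drawn in the figures.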

Additional observations from a re-analysis of the deposited data

How the results depend on the processing

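None of the 79 genes passed in any of the 14 alternatives, 2 of which (DESeq2 with the replicate block, and the fit without both libraries of letter B) were chosen after seeing the data, as were the alternatives on levels and on overlap named below. The median log2 change, 0.0554, was 0.0359 in the paired fit with the replicate block, 0.0674 with no filter, 0.0365 with both strands counted, 0.0317 with DESeq2 and the block, 0.0466 without both B libraries, and 0.0281 to 0.0540 when 1 library was left out; the cause was not tested. The block called 1 other ribosome gene, Nop10, and changed no other call of these lists. Of 532 values of 38 single genes, 13 changed sign by at least their SE. With both strands counted Rpl5 was at -0.0384. With 1 library left out, the change ran from -0.302 (without knockout B) to 0.274 (without knockout C) for Rpl32, from -0.0638 to 0.524 for Rpl39, from -0.0037 to 0.638 for Rps27rt and from -0.390 to 0.701 for Rpl10-ps3, each between the same 2 fits. For Rpl7 it ran from -0.171 (without knockout C) to 0.184 (without knockout B), for Rpl36al from -0.242 (without knockout B) to 0.712 (without control A) and for Rps27 from -0.384 (without knockout C) to 0.352 (without knockout A). Without both B libraries, Rpl17 was at 0.0200, Rpl7 at 0.211, Rpl7l1 at 0.0927, Rpl36al at -0.476 and Rpl39 at -0.0212. Groups without overlap numbered 8, and 30 without knockout B, where fewer samples make it easier for all genes. Without knockout B, 22.8% of the 79 were without overlap on the higher and 15.2% on the lower side, against 12.6% and 13.6% of all genes. The median share of unique windows was 45.5%, and 58.6% with 100-base windows. The quartile ratio of levels was 32.2, 20.1 on main transcript length and 17.9 on unique windows. The median SE was 0.30 among tested genes under 20 CPM and 0.13 among the others.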
